A study of Mus musculus with 12 samples.

Results

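Open chromatin was examined at 8 genes that regulate or mark endoderm: Foxa1, Foxa2, Foxa3, Sox17, Hnf4a, Cxcr4, Afp and Cdx2. A summit, the position of highest signal in an ATAC-seq peak, was assigned to a gene when the nearest end of any protein-coding gene within 100 kb was an end of that gene, or when the summit lay inside its body. Summits of the 12 libraries that lay no more than 250 bp apart were joined, which gave 71 regions at the 8 genes among 104822 regions in all. The 8 genes are 8 of 21631 protein-coding genes on chromosomes 1 to 19 and X. ATAC-seq uses the Tn5 transposase to cut and tag accessible DNA, and was run here on mouse embryoid bodies, aggregates in which embryonic stem cells differentiate, grown in mesodermal medium. The 6 groups held 2 libraries each: Foxk1 knockout (KO) and iHA-Foxk1 at day 3, KO and iHA-Foxk1 at day 5, and KO and Control at day 10. All 12 libraries are labelled as made without doxycycline, so any inducible Foxk1 construct of the iHA-Foxk1 line was not switched on by the drug. The deleted part of Foxk1, the number of KO clones and the line behind the day 10 Control libraries are not given in the labels, and all stem cells had been grown on irradiated fibroblast feeders that were plated out before differentiation. Whether both libraries of a group came from separate cultures is not given either.

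The FoxA proteins are forkhead factors that bind DNA in compacted chromatin and open it for other factors, and Foxa2 is needed for the node, the notochord and definitive endoderm. Foxk1, the deleted gene, encodes another forkhead protein. Endoderm and mesoderm arise from a shared progenitor in the primitive streak, and embryoid bodies grown towards mesoderm usually hold some endoderm as well. ATAC-seq of whole embryoid bodies averages over all their cells, so that fewer cells with an open site and less opening per cell cannot be told apart.

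The promoter windows that hold a forkhead sequence are shown, since Foxk1 and the FoxA proteins belong to that family; 3 of them held summits and that of Afp held none in the 12 libraries. Each runs from 250 bases before to 50 bases after a RefSeq start in GRCm38.p6 (the assembly behind mm10), 5′ to 3′ on the minus strand for Foxa1, Cxcr4 and Cdx2 and on the plus strand for Afp. Capitals mark the forkhead letters TGTTTAC or TGTTTGC on either strand, and these are the 4 windows with a match among 10 windows of 7 genes in the RefSeq table. Windows lie on chromosome 12 from 57546062 to 57546361 (Foxa1), on chromosome 1 from 128592250 to 128592549 (Cxcr4), and on chromosome 5 from 147307200 to 147307499 (Cdx2) and from 90490464 to 90490763 (Afp).
Foxa1: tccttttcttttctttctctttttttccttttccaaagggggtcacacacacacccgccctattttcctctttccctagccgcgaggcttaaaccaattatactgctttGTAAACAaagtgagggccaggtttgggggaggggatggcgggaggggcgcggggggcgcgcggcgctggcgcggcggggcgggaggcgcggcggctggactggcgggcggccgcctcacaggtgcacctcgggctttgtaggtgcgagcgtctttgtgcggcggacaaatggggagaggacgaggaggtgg
Cxcr4: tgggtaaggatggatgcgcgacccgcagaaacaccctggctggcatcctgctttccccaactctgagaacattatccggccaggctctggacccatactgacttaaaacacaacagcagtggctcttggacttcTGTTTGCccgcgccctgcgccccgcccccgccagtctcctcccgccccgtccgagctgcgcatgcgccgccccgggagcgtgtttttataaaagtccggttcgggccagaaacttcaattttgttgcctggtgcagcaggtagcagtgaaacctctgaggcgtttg
Cdx2: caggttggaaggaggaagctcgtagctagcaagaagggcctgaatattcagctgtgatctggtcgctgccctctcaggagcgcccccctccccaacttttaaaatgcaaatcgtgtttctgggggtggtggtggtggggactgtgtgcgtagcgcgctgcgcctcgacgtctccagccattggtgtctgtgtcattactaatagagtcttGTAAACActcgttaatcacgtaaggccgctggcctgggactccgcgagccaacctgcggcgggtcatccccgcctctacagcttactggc
Afp: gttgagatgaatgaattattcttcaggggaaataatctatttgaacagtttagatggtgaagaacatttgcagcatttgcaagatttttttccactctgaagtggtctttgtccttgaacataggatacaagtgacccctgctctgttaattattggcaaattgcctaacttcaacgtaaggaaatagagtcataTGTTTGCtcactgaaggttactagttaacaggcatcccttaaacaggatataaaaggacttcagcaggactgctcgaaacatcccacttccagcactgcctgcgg
Foxa1 and Cdx2 hold TGTTTAC (on the opposite strand, as GTAAACA, from positions 110 and 211 of their windows), and Cxcr4 and Afp hold TGTTTGC (from positions 135 and 196). The first was found in 3.65% and the second in 5.07% of 32851 mouse promoter windows of the same length. The GATA-factor letters AGATAA, searched on both strands like the others, were present in 1 of 3 Foxa2 windows and 1 of 2 Hnf4a windows, and in 11.2% of all windows. The SOX letters ATTGTT were in none of the 10 and in 10.7% of all windows. The HNF4 letters CAAAGTCCA were in none of the 10 and in 0.475% of all. The TCF/LEF letters TTCAAAG were in none of the 10 and in 5.14% of all. A match is a description of the sequence and not a binding site.

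In the Cxcr4 window a summit lay 128 bp before the start in KO replicate 1 and 150 bp before it in iHA-Foxk1 replicate 1 at day 3. At day 5 it lay 124 bp before the start in KO replicate 2 and 117 bp before it in iHA-Foxk1 replicate 2, so that these 4 summits lay just before the capitals. In iHA-Foxk1 replicate 1 of day 5 the summit lay 20 bp after the start. In the Cdx2 window a summit was found in 4 libraries, 173 bp (KO replicate 1, day 3), 73 bp (KO replicate 2, day 5), 9 bp (iHA-Foxk1 replicate 2, day 3) and 3 bp (iHA-Foxk1 replicate 2, day 5) before the start. In the Foxa1 window, at a start inside the annotated gene, summits lay 20 bp (KO replicate 2, day 3) and 46 bp (iHA-Foxk1 replicate 2, day 5) before it.

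Lists differed in length, and this bears on all later comparisons. Day 3 gave 59006 and 53456 summits in KO and 53473 and 54100 in iHA-Foxk1. Day 5 gave 48391 and 42129 in KO and 14519 and 34040 in iHA-Foxk1, whose replicate 1 stands apart as short. Day 10 gave 4028 and 4755 in KO and 10548 and 7764 in Control, and peak names of that day lack the duplicate-removal tag of the earlier days. The labels were followed for the KO libraries of day 5, although D7 stands in their peak names. Marker genes of other lineages also held summits. At day 3 every library had a summit in or within 1 kb of 6 of 6 pluripotency, 4 of 4 neural and 6 of 6 fibroblast (feeder) genes. It had one at no fewer than 6 of 7 mesoderm and 7 of 9 cardiac genes. The share of all genes with such a summit is not given here, so these counts do not show which cell types were present. Replicate 1 of iHA-Foxk1 at day 5 had a summit at 3 of the 8 endoderm genes, 3 of 7 mesoderm, 4 of 9 cardiac and 1 of 6 pluripotency genes, while the other 3 libraries of that day had at least 6, 6, 8 and 4. At day 10 no library had one at a mesoderm or neural marker, and the cardiac markers had 0 and 0 in KO and 2 and 1 in Control libraries. Whether cell composition had a part in any difference was not tested.

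Of the 71 regions, 9 had their middle within 1 kb of a gene end, 14 lay further inside a gene and 48 elsewhere. A summit was seen in 1 library alone at 18 regions, in 6 or more libraries at 22 and in 8 or more at 5. The 8 genes together held 38 and 38 summits in the KO libraries and 41 and 46 in the iHA-Foxk1 libraries of day 3. At day 5 they held 33 and 29 in KO and 10 and 27 in iHA-Foxk1, which is 6.82 and 6.88 per 10000 summits in KO and 6.89 and 7.93 in iHA-Foxk1. Foxa2 had most, with 14 and 14 summits in KO and 13 and 16 in iHA-Foxk1 at day 3, and Foxa1 had 7 and 9 in KO and 9 and 8 in iHA-Foxk1. Of the 8 genes, Cxcr4 alone had numbers that did not overlap between the groups of day 3, with 3 and 2 summits in KO and 5 and 8 in iHA-Foxk1. The share of all genes that separate in this way is not given here, so the separation is not a result about Cxcr4. At day 5 Foxa2 had 8 and 9 summits in KO and 0 and 4 in iHA-Foxk1, and Sox17 had 4 and 5 in KO and 1 and 6 in iHA-Foxk1. Cdx2 held 4 summits in each of the 4 libraries of day 3. Foxa3, Hnf4a and Afp held 1 or 2 in every library of that day. At day 10 none was found in the KO libraries, while 1 summit near Foxa1 (replicate 1, percentile 7.48, 36328 bp upstream) and 1 near Sox17 (replicate 2) were found in Control libraries. A summit of KO replicate 2 within 1 kb of Foxa3 was nearest to another gene. With 0 of 4028 and 0 of 4755 summits, up to 7.45 and 6.31 summits per 10000 could have gone unseen (a limit of 3 summits, counting error only), and the day 3 libraries had 6.44 and 7.11 per 10000 in KO and 7.67 and 8.5 in iHA-Foxk1. Lists of this length could not show a difference between KO and Control at day 10.

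**Figure D1:**
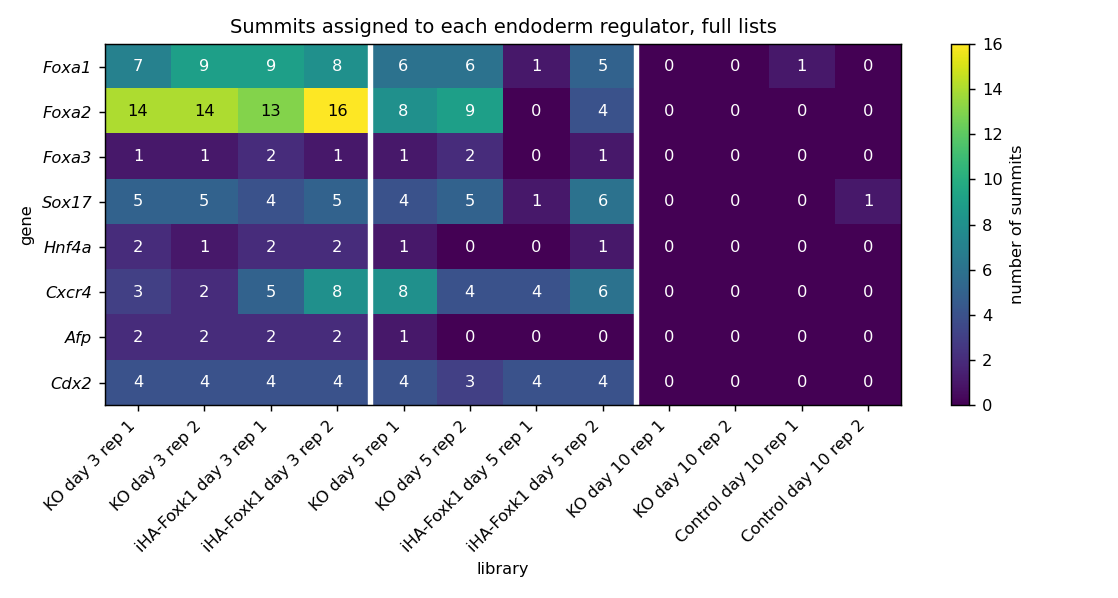
Number of summits (colour and printed value) assigned to each of the 8 genes (rows) in each of the 12 libraries (columns, full lists, days 3, 5 and 10 from left to right with KO left of its control). Foxa2 holds 13 to 16 summits in every day 3 library, and the day 10 columns hold 1, 1 or 0 summits in all.

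Foxa2 is a single gene of 4093 bp on the minus strand (gene 15376, chromosome 2, 148042877 to 148046969), and 20 of the 71 regions were assigned to it, 19 of them more than 1 kb from either end. Ranks are given as percentiles, the share of summits of the same list that scored no higher. At day 3, 5 Foxa2 regions, 3 of them upstream, stood lower in both KO lists than in both iHA-Foxk1 lists, while 1 region close to the start stood higher. The region 38064 bp upstream (148084972 to 148085095) was at percentiles 17.2 and 10.1 in KO and 79 and 79.7 in iHA-Foxk1. No library of day 5, KO or iHA-Foxk1, had a summit in it. At day 3 both KO libraries lay far below both iHA-Foxk1 libraries, and the mean difference was −65.7 percentage points. Among 32809 regions found in all 4 libraries of the day, 16 (0.0488%) had a difference this low, and replicates differed by a median of 5.38 points in KO and 6.29 in iHA-Foxk1. This region was picked out after its values were seen, and its difference was −69.9 with lists cut to equal length and between −69.3 and −62.2 with any 1 library left out. At 53042 bp upstream (148099943 to 148100079) the percentiles were 39.7 and 50.5 in KO and 82.1 and 72 in iHA-Foxk1, a difference of −32 (2.06% of regions this low). At 6451 bp upstream (148053378 to 148053462) they were 50.3 and 64.4 in KO and 73.2 and 81.1 in iHA-Foxk1. Between the far upstream regions, 50408 bp from the start, iHA-Foxk1 libraries stood at 65.3 and 57.5, against no summit in KO replicate 1 and percentile 0.92 in KO replicate 2.

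Inside the gene, 699 bp from its start (148046142 to 148046399), the best-ranked Foxa2 region stood at 83.9 and 79.8 in KO and 95.1 and 96 in iHA-Foxk1 (difference −13.7, 9.89% of regions this low). At day 5 it stood at 80.6 and 75.5 in KO and none and 47.2 in iHA-Foxk1. The fifth lower region, 78092 bp downstream of the start (147968843 to 147968912), stood at 45.4 and 53.9 in KO and 60.7 and 63.9 in iHA-Foxk1 at day 3. The region 1815 bp upstream (148048678 to 148048890) ran the other way, at 69 and 52.6 in KO and 30.8 and 34 in iHA-Foxk1 (difference 28.4, with 3.9% of regions this high). It is the member region that stood furthest up in the KO at day 3 among those found in all 4 libraries. At 3 further regions a summit was present in KO alone at day 3. KO libraries had one 67830 bp upstream (148114799, percentiles 76.2 and 63.9), 12526 bp downstream of the start (148034442 to 148034445, 25.4 and 27.2) and 7435 bp downstream of it (148039463 to 148039606, 36.6 and 34.5), where iHA-Foxk1 libraries had none. The last of these was open in all 4 KO libraries of days 3 and 5 and in none of the 4 iHA-Foxk1 libraries, a pattern found at 1 of 32 member regions and at 2.22% of 43170 regions. The reverse pattern was found at 0 of 32 member regions and at 0.16% of all. iHA-Foxk1 libraries of day 3 had a summit of their own 685 bp away (148038618 to 148038778, percentiles 49.9 and 7.88), absent from KO libraries. No sequence of these distal regions was used here.

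**Figure D2:**
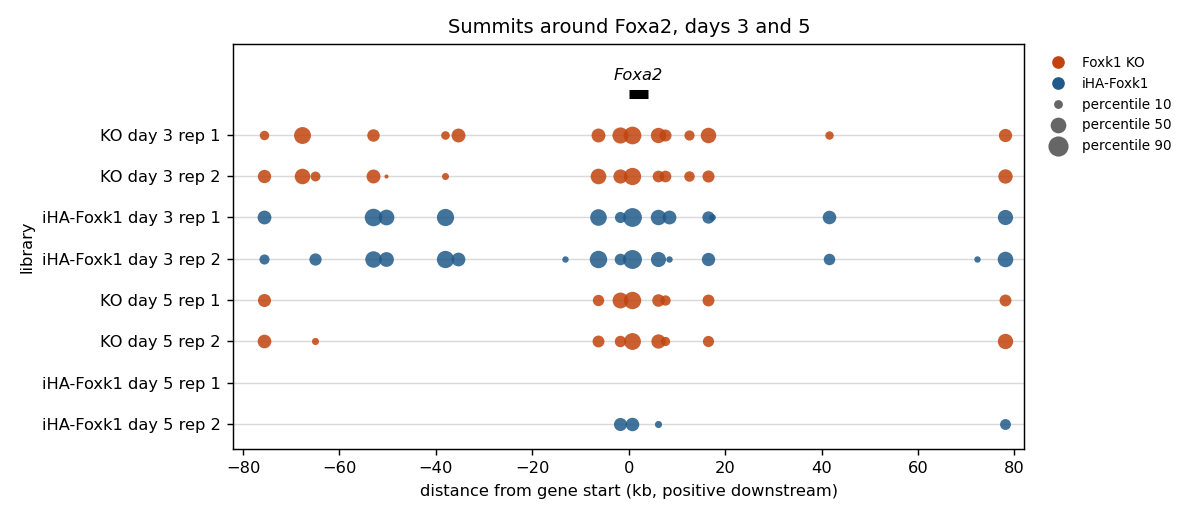
Summits around Foxa2 in the 8 libraries of days 3 and 5 (rows) by distance from the gene start in kb (horizontal axis), with the gene as a black bar and the dot area growing with the percentile. Dots 38 kb upstream are small in both KO libraries of day 3 (percentiles 17.2 and 10.1) and large in both iHA-Foxk1 libraries (79 and 79.7). No library of day 5, KO or iHA-Foxk1, has a dot there, and iHA-Foxk1 replicate 1 of day 5 has no dot at all.

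**Figure D3:**
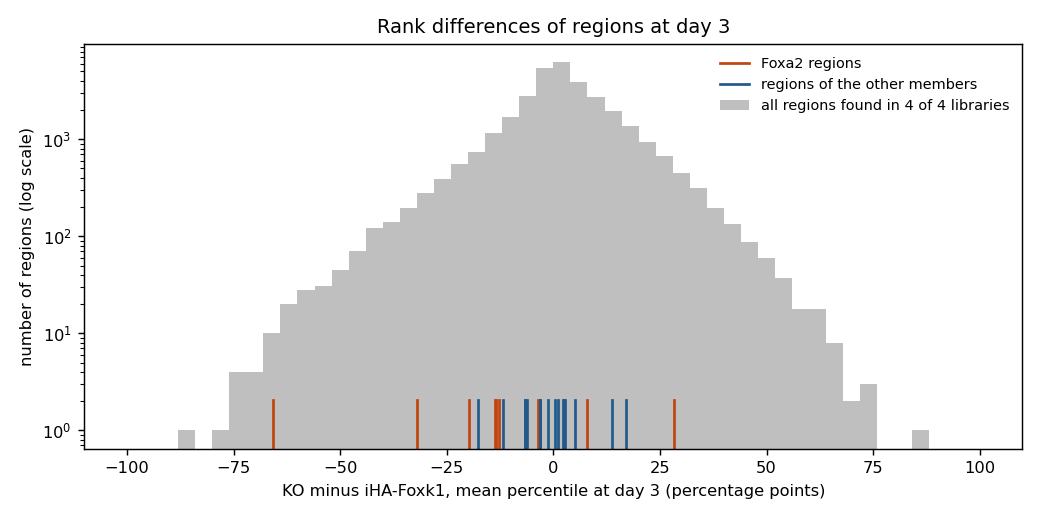
Difference in mean percentile at day 3, KO minus iHA-Foxk1 (horizontal axis, percentage points), for 32809 regions found in all 4 libraries (grey bars, log count) and for the 25 member regions among them (lines at the base). A Foxa2 region at −65.7 lies in the lower tail, and most lines of the other genes lie near the centre.

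With summits joined over all 12 libraries, 26 member regions were found in each library of day 3. At 4 of these 26, KO libraries stood below iHA-Foxk1 at day 3 and above it at day 5, against 8.51% of 33557 regions, and at 0 of 26 the other way round, against 0.161%. For ranks at day 3, summits were joined over the 4 libraries of that day alone, which left 25 member regions found in all of them, since the summits inside Sox17 (4493138 to 4493682) then no longer formed 1 region shared by all 4. Both KO percentiles lay below both iHA-Foxk1 percentiles in 8 (32%), above them in 4 (16%) and overlapped in 13. Over all such regions the shares were 20% below and 30.7% above. KO replicate 1 has the longest list, and with lists of equal length the members split into 11 below and 3 above, against 23% and 27.4% of all regions. With 1 library left out the shares moved in the members and in the genome alike. The members above numbered 7 of 27 without KO replicate 2 (25.9%, against 46.3% of all regions), 10 of 25 without iHA-Foxk1 replicate 1 (40%, against 45.2%) and 7 of 24 without iHA-Foxk1 replicate 2 (29.2%, against 45.8%). Those below numbered 13 of 27 without KO replicate 1 (48.1%, against 35.3%) and 15 of 24 without iHA-Foxk1 replicate 2 (62.5%, against 31%). Without iHA-Foxk1 replicate 1, 8 of 25 stood below (32%), next to 31.6% of all regions, so that the members' share then met that of the genome. Of the 8 lower regions, 5 belong to Foxa2, 2 to Cdx2 and 1 to Foxa3. This count is a description of regions that share genes and libraries.

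Foxa1 (gene 15375, chromosome 12, 57540628 to 57548029) had 15 regions, and its best-ranked one, 28192 bp upstream (57576127 to 57576315), held a summit in all 8 libraries of days 3 and 5. It stood at 85.4 and 90.9 in KO and 80.3 and 90.8 in iHA-Foxk1 at day 3, with overlap of the groups, and at 84.5 and 72.6 in KO and 9.09 and 54.6 in iHA-Foxk1 at day 5. The 4 other Foxa1 regions found in all day 3 libraries also overlapped between the genotypes. A region 24536 bp upstream (57572557 to 57572573) held a summit in both iHA-Foxk1 libraries (percentiles 76.4 and 78.4) and in neither KO library of day 3. Inside the gene, 4922 bp from the start, low-ranked summits were found in 3 KO libraries (0.668 and 22.8 at day 3, 4.51 at day 5) and in no control library. The nearest gene end of 3 regions inside Foxa1 is one of Ttc6, which overlaps it, so that these cannot be ascribed to 1 gene. Foxa3 (gene 15377, chromosome 7, 19013283 to 19023539) had 2 regions. The one 970 bp beyond its downstream end (19012183 to 19012444) stood at 52.4 and 54.6 in KO and 70.1 and 60.5 in iHA-Foxk1 at day 3. At its start site (19023403 to 19023646) there were summits in KO replicate 2 of day 5 (4.78) and iHA-Foxk1 replicate 1 of day 3 (26.1) alone.

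Sox17 encodes an HMG-box factor needed for definitive endoderm, and Hnf4a a nuclear receptor of visceral endoderm and liver. Sox17 (gene 20671, chromosome 1, 4490928 to 4497426) had the best-ranked distal regions of the 8 genes. The region 74454 bp from the gene (4571713 to 4572048) stood at 93.6 and 96 in KO and 86.9 and 92.6 in iHA-Foxk1 at day 3. At day 5 it stood at 91.1 and 93.3 in KO and 81.9 and 84.5 in iHA-Foxk1, the lists of that day differing in length. The region 62610 bp away (4559941 to 4560131) was at 97.8 and 96 in KO and 92.9 and 96.4 in iHA-Foxk1 at day 3, which overlap. At day 5 it was at 86.2 and 80.5 in KO, while iHA-Foxk1 replicate 1 had no summit there and replicate 2 had one at 29.4. Control replicate 2 of day 10 had a summit in it at percentile 11.2. Inside the gene, 4493138 to 4493682 stood at 81.2 and 85.8 in KO and 80.7 and 82 in iHA-Foxk1 at day 3, and at 66.9 and 76.3 in KO and none and 29.5 in iHA-Foxk1 at day 5. A weaker site inside the gene, 897 bp from its higher end (4496481 to 4496577), was found in both KO libraries of day 3 (16.5 and 22.7) and neither iHA-Foxk1 library, but at day 5 in 1 library of each genotype (21.5 in KO and 44.6 in iHA-Foxk1). A summit 324 bp inside that end was seen in iHA-Foxk1 replicate 2 of day 3 alone (4.1). The region 46748 bp away (4544044 to 4544305) stood at 11.4 and 14.4 in KO at day 3 and at 40 and 35.8 in KO at day 5, against 24.9 and 13 in iHA-Foxk1 at day 3 and none and 33.6 at day 5. Hnf4a (gene 15378, chromosome 2, 163506811 to 163572907) had 2 regions, both inside the gene, and none at its 2 RefSeq starts. The one 28309 bp from the start (163535072 to 163535168) stood at 58.9 and 52.8 in KO and 36.1 and 48.2 in iHA-Foxk1 at day 3, higher in KO without overlap (difference 13.7, 16.4% of regions this high). At day 5 it was found in KO replicate 1 (59) and iHA-Foxk1 replicate 2 (38.8). The region 25367 bp from the start was found at day 3 alone, in KO replicate 1 (21.9) and in both iHA-Foxk1 libraries (24.9 and 7.83).

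Cxcr4 encodes the receptor for the chemokine Cxcl12, used as a surface marker of definitive endoderm and also present on mesodermal cells. At day 5 some distal regions ranked apart between the genotypes while the start site did not, in lists that were longer in KO. The share of all regions that rank apart at day 5 is not given here, so the contrast between these regions is a description. Cxcr4 (gene 12767, chromosome 1, 128588199 to 128592299) had 15 regions. At 40224 bp downstream of the start (128551941 to 128552209), day 5 percentiles were 20.2 and 25.8 in KO and 71.5 and 74.3 in iHA-Foxk1. No KO library and both iHA-Foxk1 libraries (30.1 and 28.6) had a summit there at day 3. At 59511 bp downstream (128532707 to 128532869) day 5 percentiles were 14.3 and none in KO and 49.6 and 60.5 in iHA-Foxk1. In the region 76767 bp upstream (128669049 to 128669084) iHA-Foxk1 libraries of day 5 had summits at 16.4 and 56.5 and KO libraries none. In the opposite direction, the region 95088 bp upstream (128687344 to 128687430) held summits in both KO libraries of day 5 (43.9 and 54) and in no iHA-Foxk1 library. The start site (128592279 to 128592607) was open in all 8 libraries of days 3 and 5, at 65.7 and 67.3 in KO and 36.3 and 62.8 in iHA-Foxk1 at day 3 and at 75.9 and 58.1 in KO and 72 and 72.1 in iHA-Foxk1 at day 5. The region 1089 bp upstream (128593345 to 128593432) had a summit in KO replicate 2 (69.2) and in both iHA-Foxk1 libraries (68.2 and 78.3) at day 3, and at day 5 in both KO libraries (60.1 and 58.6) and in neither iHA-Foxk1 library. Inside the gene, 1054 bp from the start (128591176 to 128591315), weak summits were seen in both iHA-Foxk1 libraries of day 3 (14.2 and 4.23) and in KO replicate 1 of day 5 (32.1).

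Cdx2 encodes a caudal homeobox factor of posterior tissue, trophectoderm and gut. Cdx2 (gene 12591, chromosome 5, 147300900 to 147307249) had 7 regions. A region 209 bp inside its downstream end (147301045 to 147301173) held a summit in both iHA-Foxk1 libraries of day 5 (7.82 and 69) and in no other library. The region 2222 bp inside the gene (147304967 to 147305088) stood at 56.7 and 54.9 in KO and 82.5 and 64.4 in iHA-Foxk1 at day 3 (difference −17.7, 7.02% of regions this low). At day 5 it was found in KO replicate 1 alone, at 20.7. The start site (147307108 to 147307422) stood at 55.5 and 52.1 in KO and 58.5 and 48.3 in iHA-Foxk1 at day 3. At day 5 KO replicate 1 had none and replicate 2 had 51.1, against 28.9 and 67.8 in iHA-Foxk1. The region 7707 bp downstream of the start (147299299 to 147299785) was found in all 8 libraries, at 72.3 and 63.7 in KO and 78.6 and 70.9 in iHA-Foxk1 at day 3 and at 65.1 and 78.5 in KO and 55.7 and 52.6 in iHA-Foxk1 at day 5. A summit 754 bp inside the gene was seen in KO replicate 1 of day 5 alone (40.1).

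**Figure D4:**
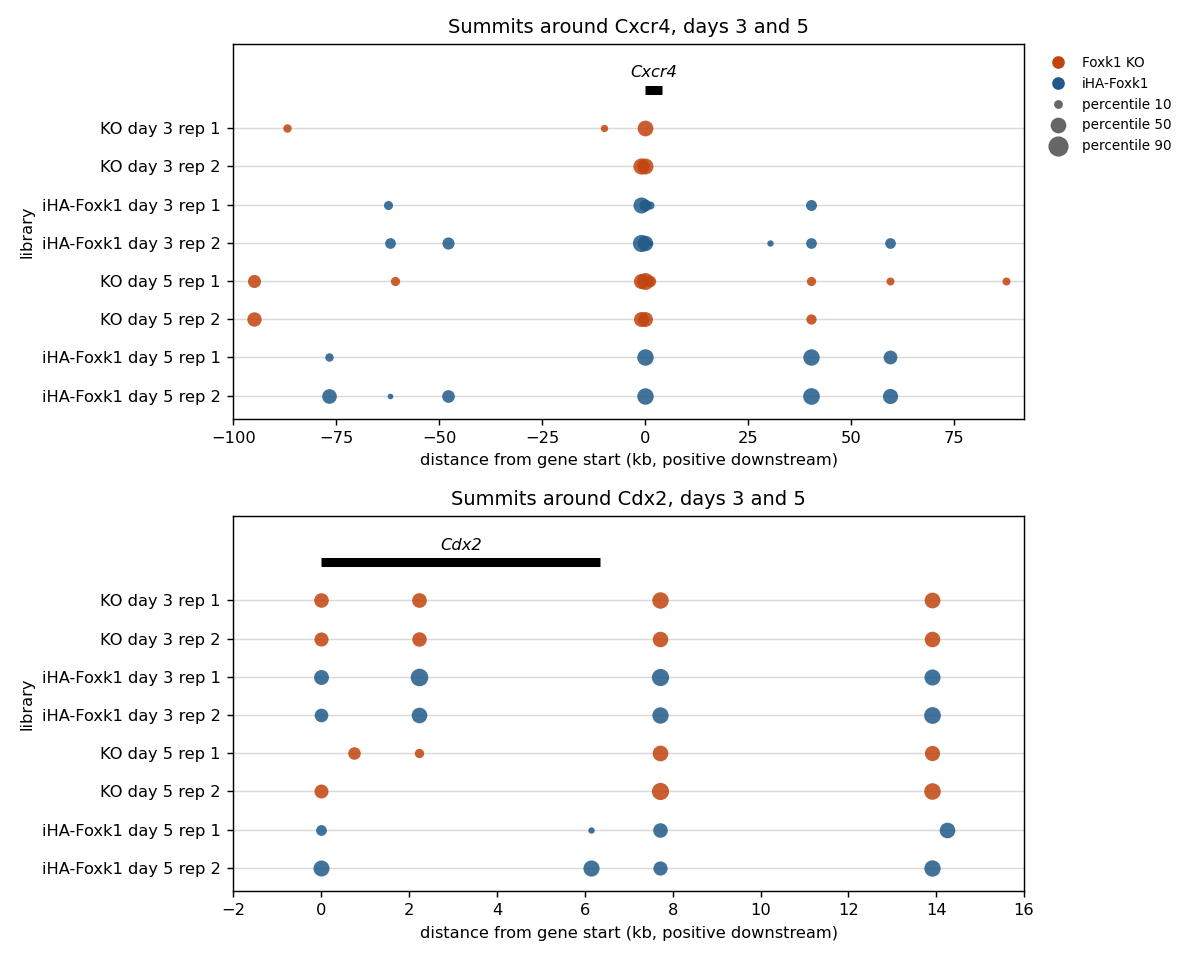
Summits around Cxcr4 (upper panel) and Cdx2 (lower panel) in the libraries of days 3 and 5 (rows) by distance from the gene start in kb, with the gene as a black bar and dot area growing with the percentile. At 40 kb downstream of the Cxcr4 start, dots are small in KO at day 5 (20.2 and 25.8) and large in iHA-Foxk1 (71.5 and 74.3), and 6140 bp into Cdx2 a dot is seen in the iHA-Foxk1 libraries of day 5 alone.

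Afp encodes alpha-fetoprotein, a serum protein of yolk sac endoderm and fetal liver. Afp (gene 11576, chromosome 5, 90490714 to 90508907) had 3 regions, all inside the gene. In the middle of the gene the summits of the genotypes lay at different positions at day 3. KO libraries had a summit at 90500919 to 90500957 (45.4 and 49.8), and iHA-Foxk1 libraries had one 318 bp away at 90500538 to 90500601 (19.5 and 63.9). Each thus had a summit of the other genotype within 1 kb, at little more than the 250 bp used to join summits. Whether these are separate open sites was not tested. Neither site was found at day 5. The region 16867 bp from the start (90507486 to 90507676) stood at 33.2 and 53.9 in KO and 58.1 and 23.8 in iHA-Foxk1 at day 3, which overlap, and was found at day 5 in KO replicate 1 alone (20.2).

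For counts, libraries were cut to a common number N of best summits, that of the smallest list (53456 for day 3, 14519 for day 5 and 4028 for day 10). A region was called for a genotype when both of its libraries and neither of the other genotype's had a summit. At day 3, 5 of 40 reproducible member regions (those that at least 1 genotype showed in both libraries) were KO-only, against 9.75% of 52246 regions in all, and 4 were control-only, against 9.59%. The members' shares of 12.5% and 10% are near these backgrounds. KO-only regions lay at Foxa2 (3), Sox17 and Afp, and control-only regions at Foxa1, Foxa2, Cxcr4 and Afp. When a region also had to lack any summit of the other genotype within 1 kb in the full lists, 2 KO-only (5%, against 8.38% of all regions) and 2 control-only regions (5%, against 7.68%) were left. Merging at 100 bp gave 2 control-only of 29 (6.9%, against 11%). With 1 library fewer the rule asks less: without KO replicate 1, 9 of 44 were KO-only (20.5%, against 18.6%), and without iHA-Foxk1 replicates 1 and 2, 14 of 52 and 12 of 48 were control-only (26.9% and 25%, against 19.2% and 19.8%).

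At day 5, 4 of 9 reproducible member regions were control-only (44.4%, against 7.95% of 14276 regions) and 2 were KO-only (22.2%, against 12.1%). Control-only calls were the regions 40224 and 59511 bp downstream of the Cxcr4 start and those at both ends of Cdx2 (147301045 to 147301173 and 147307111 to 147307252), and KO-only calls were the Sox17 region 62610 bp away and the region inside Foxa2. These are small numbers at short lists. Of the 4 control-only regions, 1 (the downstream end of Cdx2) had no KO summit within 1 kb in the full lists (11.1%, against 1.16% of all regions), and neither KO-only region lacked an iHA-Foxk1 summit there (0%, against 6.58%). With all summits used, 2 of 26 were control-only (7.69%, against 2%) and 6 KO-only (23.1%, against 36.9%), the KO lists being longer. Merging at 100 bp left 0 control-only of 3 reproducible member regions (against 6.27% of all regions). N divided by 2 left 0 of 1 (against 4.48%), and with so few regions these 0 counts say little about the share. With gene ends within 50 kb, 3 of 6 were control-only (50%, against 7.95%). Without iHA-Foxk1 replicate 1, the short list, N was 34040, and 8 of 32 member regions were control-only (25%, against 27.6% of 42534 regions) and 5 KO-only (15.6%, against 20%). The members' share of control-only regions was thus above that of the genome with the short list and not above it without that list. Without iHA-Foxk1 replicate 2, 7 of 12 were control-only (58.3%, against 28.3%). No member region entered the comparison of day 10 (0 reproducible regions, while 9.88% of 3643 regions were KO-only and 11.7% control-only).

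Between days, regions called in iHA-Foxk1 lay at Cxcr4 and Cdx2 for day 5 and at Foxa1, Foxa2 and Sox17 for day 3. Most of the day 5 calls rest on the cut to N, as full day 3 lists held summits there too. In iHA-Foxk1, 5 of 12 reproducible member regions were called at day 5 alone (41.7%, against 13.4% of 15158 regions), 3 at Cxcr4 and 2 at Cdx2, and 5 at day 3 alone (41.7%, against 22.5%), 3 at Foxa2 (inside the gene and 6451 and 38040 bp upstream) and 1 each at Foxa1 (24536 bp upstream) and Sox17 (62610 bp away). In KO, with lists of 42129 summits, 3 of 32 were called at day 5 alone (9.38%, against 8.58% of 41738 regions), 2 at Cxcr4 and 1 at Sox17, and 3 at day 3 alone (9.38%, against 10.9%), 2 at Foxa2 and 1 at Afp. The N of these comparisons differ between the lines, and the difference between the lines was not tested. The iHA-Foxk1 calls of day 5 alone numbered 0 of 3 with N divided by 2 (against 12.2% of all regions). With merging at 100 bp they numbered 0 of 7 (against 9.99%), and such small numbers of regions say little. They numbered 1 of 12 with absence within 1 kb on full lists (8.33%, against 2.68%). With all summits they numbered 2 of 37 (5.41%, against 2.65%). The iHA-Foxk1 calls of day 3 alone numbered 2 of 3 with N divided by 2 (66.7%, against 18.5%). With merging at 100 bp they numbered 6 of 7 (85.7%, against 25.6%). They numbered 3 of 12 with absence within 1 kb (25%, against 14.6%) and 17 of 37 with all summits (45.9%, against 48%). Without iHA-Foxk1 replicate 1 of day 5, 12 of 37 were called at day 5 alone (32.4%, against 31.1%) and 10 at day 3 alone (27%, against 24.5%), shares close to those of the genome. Without iHA-Foxk1 replicate 2 of day 5, 8 of 16 were called at day 5 alone (50%, against 32%), and without iHA-Foxk1 replicate 2 of day 3, 8 of 16 at day 3 alone (50%, against 28.8%). In KO, the count at day 5 alone was 0 of 10 with N divided by 2 (against 7.3% of all regions). It was 9 of 40 without KO replicate 2 of day 5 (22.5%, against 21.1%). Without KO replicate 2 of day 3 it was 5 of 33 (15.2%, against 10.3%). The KO count at day 3 alone was 1 of 10 with N divided by 2 (10%, against 8.58%). With gene ends within 50 kb it was 1 of 25 (4%, against 10.9%). It was 5 with all summits, 6 without replicate 1 of day 5, 7 without replicate 2 of day 5 and 6 without replicate 1 of day 3, with shares of 13.9% to 17.5% against 14.5% to 17.7% of all regions. The region 40 kb downstream of the Cxcr4 start was called for day 5 alone in both lines, each at its own N. In iHA-Foxk1 both full lists of day 3 held a summit there (percentiles 30.1 and 28.6), so that call rests on the cut to N. The same holds at the start sites of Cxcr4 (36.3 and 62.8 at day 3) and Cdx2 (58.5 and 48.3). At 59511 bp downstream of the Cxcr4 start, iHA-Foxk1 replicate 2 of day 3 had a summit (28.6). The downstream end of Cdx2 had none in either day 3 list. Of the day 3 calls, those inside Foxa2 and at Sox17 had a day 5 summit in iHA-Foxk1 replicate 2 (47.2 and 29.4). Between the genotypes the region 40 kb downstream of the Cxcr4 start was control-only at day 5, although the full KO lists held summits there (20.2 and 25.8).

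**Figure D5:**
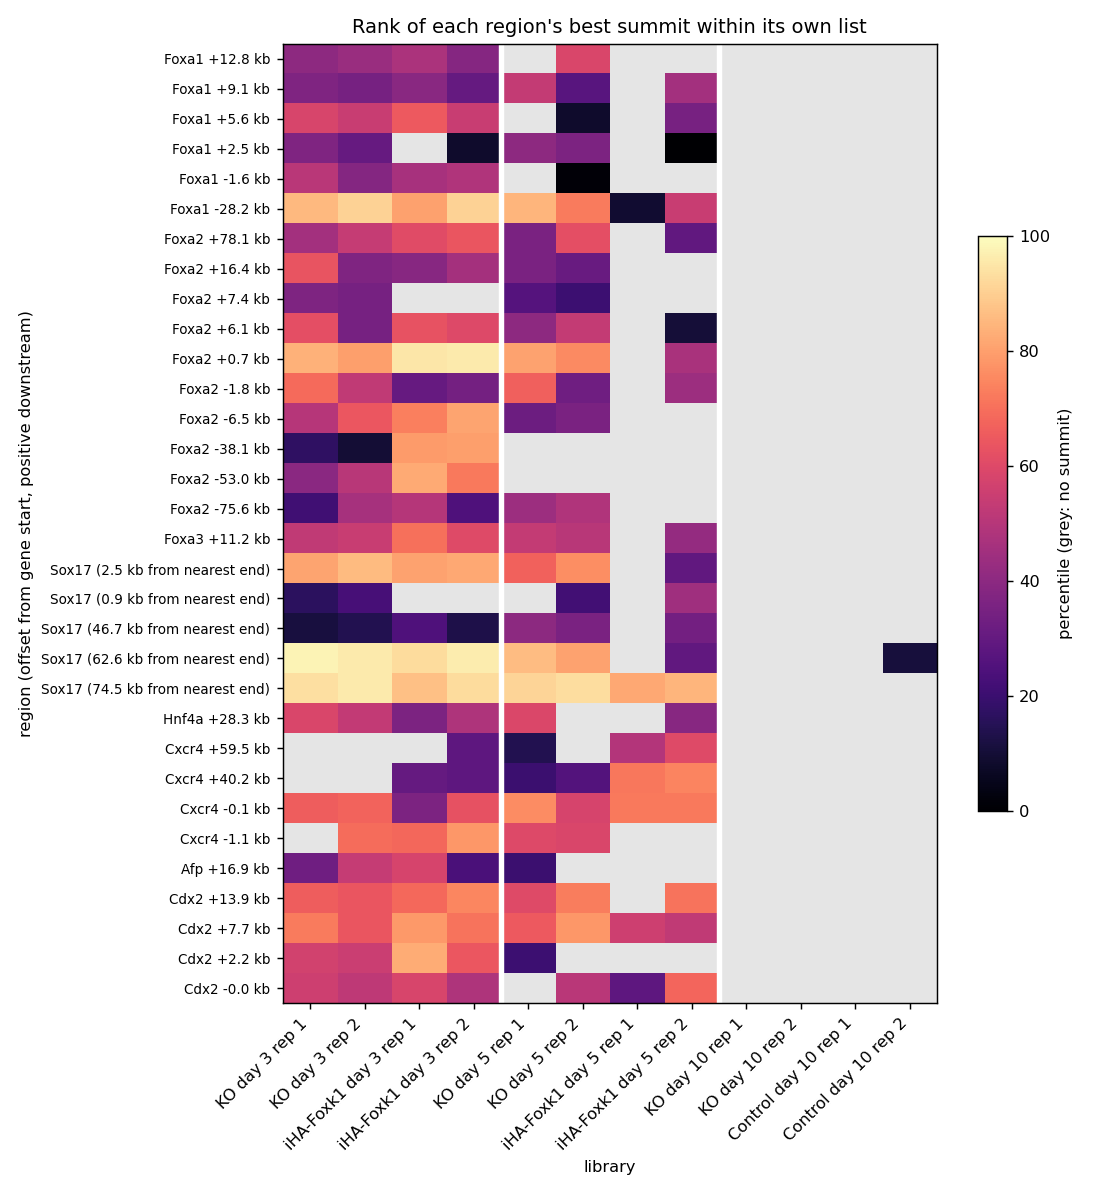
Percentile of the best summit within its own list (colour, grey where there is no summit) for the member regions found in 4 or more libraries (rows, by offset from the gene start in kb, for Sox17 by distance to the nearest gene end) in the 12 libraries (columns, KO left of its control within each day). Sox17 regions 62610 and 74454 bp from the gene are bright in all day 3 libraries, and the day 10 columns are grey but for percentile 11.2 in Control replicate 2.

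The number of summits per gene was also compared over all 12 libraries at the N of each day, with the genotype labels exchanged within each day in an exact permutation test (two-sided, smallest possible p 0.00926). Of 17459 genes tested, none had an adjusted p under 0.05 by this exact permutation test, and 47 had an unadjusted p below 0.05. In this exact test a gene with no summit at day 10, such as each of the 8, cannot go below p = 0.0556. Cxcr4 averaged 1 summit in KO and 3.33 in control libraries (difference −2.33, exact permutation p = 0.0556, adjusted p = 1), with 3 and 2 in KO and 5 and 8 in iHA-Foxk1 at day 3 and 1 and 0 in KO and 4 and 3 in iHA-Foxk1 at day 5. Lower numbers were seen in 4 of 4 KO libraries of days 3 and 5, but in full lists Cxcr4 had 8 and 4 summits in KO and 4 and 6 in iHA-Foxk1 at day 5. The share of all genes that separate in this way or reach this p is not given here. The separation is therefore not a result about Cxcr4. Cdx2 averaged 1.67 in KO and 2.5 in control libraries (exact permutation p = 0.33) and Sox17 2.5 and 1.83 (exact permutation p = 0.167), both with an adjusted p of 1. Foxa1, Foxa2, Foxa3, Hnf4a and Afp had a p of 1 by the same exact test, with differences from −0.167 to 0.167. Over the 12 full lists, the genes whose summits per 10000 varied most like those of Foxa2 were Sqor, Bpifb9b and Gm6650 (Pearson r = 0.991 for each over 12 libraries, among 16315 genes), a description in which all points share the library and its depth.

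Other endoderm genes were taken from a list of 50, all found in the annotation. The list includes Sox2, Eomes, Mixl1 and Gata4, which also served as markers of other lineages. At day 3, 31 of 192 reproducible regions near the listed genes were KO-only (16.1%, against 9.75% of all regions) and 26 control-only (13.5%, against 9.59%). The best-ranked KO-only regions lay near Eomes (946 bp), Epcam, Sparc, Col4a1, Mixl1 (170 bp) and Hnf4g (231 bp), and the best-ranked control-only regions near Mixl1 (350 bp), Gsc, Lamb1, Lhx1, Hnf4g (128 bp) and Eomes (93403 bp). Eomes and Mixl1, regulators of mesendoderm, and Hnf4g, a nuclear receptor related to Hnf4a, thus had regions called for each genotype. These lay 420 bp apart at Mixl1 and 343 bp apart at Hnf4g, so that each had a summit of the other genotype within 1 kb, and 94280 bp apart at Eomes. With absence within 1 kb on full lists, 24 of 192 were KO-only at day 3 (12.5%, against 8.38%) and 19 control-only (9.9%, against 7.68%). N divided by 2 gave 10 KO-only of 73 (13.7%, against 9.14%) and 8 control-only (11%, against 9.11%). At day 5, 2 of 21 were KO-only (9.52%, against 12.1%), near Cubn and Cxcl12, and 4 control-only (19%, against 7.95%), near Cubn, Gata6, Lhx1 and Cxcl12, the last of which encodes the ligand of the Cxcr4 receptor. Those at Cubn lay 261 bp apart. None of these 6 calls held when the other genotype also had to lack a summit within 1 kb in the full lists (0 of 21 in each direction, against 6.58% KO-only and 1.16% control-only of all regions). Without iHA-Foxk1 replicate 1, 60 of 149 were control-only (40.3%, against 27.6%) and 19 KO-only (12.8%, against 20%), and with all summits 34 of 102 were KO-only (33.3%, against 36.9%). The Gata6 region lay 16 bp from an end of that gene, which encodes a zinc-finger factor of primitive endoderm and heart.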

How the data were processed

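ATAC-seq used 50000 cells per reaction, per the labels' protocols. Bowtie2 2.2.4, MACS2 with no version and the build mm10 are named in the submitters' processing notes. Each library has its own deposited list of summits. The deposited score is a −log10 p-value or q-value, without a statement of which, and served only to rank summits within a list. Read depth is unknown, and many weak summits share 1 score, so their ranks are tied. Summits on chromosomes 1 to 19 and X were kept, and gene positions came from RefSeq (GRCm38.p6), whose table gives no exons. Python 3.11.15, NumPy 2.4.6, SciPy 1.17.1 and Matplotlib 3.10.9 were used. Genes with summits in fewer than 3 libraries were left out of the permutation test, adjusted by Benjamini-Hochberg. In data simulated for 17459 genes, 200 were changed 3-fold, all drawn from genes that averaged at least 3 summits per library. Of these, 75.5% had p under 0.06, as had 1.46% of unchanged genes, and none passed adjustment. Among the 8 members Foxa2 alone averaged that many summits, so the share of 75.5% does not cover the other members. Two-sided exact tests of 2 against 2 libraries cannot give a p below 0.333 and were not run. The spread behind each p is that between these libraries and may be technical. Members, lists and tests were chosen with earlier results of these data known, and the comparisons of day 3 ranks with all regions, of regions in 4 of 4 libraries and of opposite order between days were added after the values were seen. The text names every member and its regions that were called, lay within 1 kb of a gene end or were found in 8 or more libraries, with others chosen after their values were seen. Of the other endoderm genes it names at most 6 per comparison, by rank. Alternatives were N divided by 2, all summits, merging at 100 bp, absence within 1 kb on full lists, gene ends within 50 kb, leaving out each library, no filter on genes, days 3 and 5 only and a replicate block.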

Additional observations from a re-analysis of the deposited data

Results flagged for a closer look

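In 4 member regions both KO libraries stood below both iHA-Foxk1 libraries at day 3 and above them at day 5, with a missing summit counted as 0. The difference between the days was not tested. The values are KO minus iHA-Foxk1 in mean percentile. They were −12.6 (day 3) and 34.1 (day 5) at the Foxa2 region 78092 bp downstream of the start. At the region inside Foxa2, 699 bp from the start, they were −13.7 at day 3 and 54.4 at day 5. The region 6451 bp upstream of Foxa2 had −19.8 at day 3 and 34.1 at day 5, and the region 970 bp beyond the downstream end of Foxa3 had −11.8 at day 3 and 31.1 at day 5. These 4 are of 26 member regions found in all 4 libraries of day 3 when summits are joined over all 12 libraries. Over the genome 8.51% of 33557 such regions had this order and 0.161% the opposite one. iHA-Foxk1 replicate 1 of day 5, with the shortest list (14519 summits), had no summit in any of the 4, and its part in the order was not tested.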

How the results depend on the processing

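With N divided by 2, day 3 gave 3 KO-only of 22 reproducible member regions (13.6%, against 9.14% of all regions). Day 5 then had 1 reproducible member region, which was called for neither genotype (against 5.18% KO-only and 4.48% control-only). Using every summit, day 5 had 6 KO-only and 2 control-only of 26 (23.1% and 7.69%, against 36.9% and 2%). Merging at 100 bp gave 2 control-only of 29 at day 3 (6.9%, against 11%) and 0 of 3 at day 5 (against 6.27%). Gene ends within 50 kb gave 1 KO-only of 6 at day 5 (16.7%, against 12.1%). Absence within 1 kb on full lists gave 2 KO-only and 2 control-only of 40 at day 3 (5% each, against 8.38% and 7.68%). At day 5 it gave 0 KO-only and 1 control-only of 9 (0% and 11.1%, against 6.58% and 1.16%). Day 10 stayed at 0 in both directions under these settings and with any library left out, as 0 member regions were reproducible in each case. For day 5 alone, N divided by 2 gave 0 of 10 regions in KO (against 7.3%) and 0 of 3 in iHA-Foxk1 (against 12.2%). In iHA-Foxk1 all summits gave 2 of 37 (5.41%, against 2.65%) and merging at 100 bp 0 of 7 (against 9.99%). Absence within 1 kb gave 1 of 12 in iHA-Foxk1 (8.33%, against 2.68%). For day 3 alone, N divided by 2 gave 1 of 10 in KO (10%, against 8.58%) and 2 of 3 in iHA-Foxk1 (66.7%, against 18.5%). All summits gave 5 of 36 in KO (13.9%, against 17.2%) and 17 of 37 in iHA-Foxk1 (45.9%, against 48%). Gene ends within 50 kb gave 1 of 25 in KO (4%, against 10.9%). Absence within 1 kb gave 3 of 12 in iHA-Foxk1 (25%, against 14.6%). Leaving out 1 library gave 6 to 9 KO-only regions at day 3 (11.5% to 20.5%, against 13.1% to 18.6% of all regions). Control-only regions of day 3 then numbered 6 to 14 (13.6% to 26.9%, against 11.5% to 19.8%). At day 5, 2 to 5 were KO-only (15.6% to 25%, against 18.1% to 22.3%) and 4 to 8 control-only (25% to 58.3%, against 8.69% to 28.3%). For day 5 alone, leaving out 1 library gave 3 to 9 in KO (8.11% to 22.5%, against 10.3% to 21.1%). In iHA-Foxk1 it gave 5 to 12 (31.2% to 50%, against 14.9% to 32%). For day 3 alone it gave 4 to 7 in KO (12.1% to 17.5%, against 14.5% to 17.7%). In iHA-Foxk1 it gave 6 to 10 (27% to 50%, against 24.5% to 28.8%). With 1 library left out, member regions ranked above iHA-Foxk1 in KO at day 3 numbered 5 to 10 (18.5% to 40%, against 37.6% to 46.3%). Those below numbered 8 to 15 (32% to 62.5%, against 28.4% to 35.3%). The cause of these shifts was not tested, except that fewer libraries loosen the rule.

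Labels give replicates 1 and 2 in each group. Same-numbered libraries did not deviate together (r = −0.023 at day 3, −0.023 at day 5 and −0.036 at day 10 over genes), so the numbers are not taken as pairs. With the replicate number as a block (smallest p 0.0312) 0 genes passed adjustment by the exact permutation test and 9 had p under 0.05, against 47 without it. No other setting of this test called a gene, with 0 to 98 genes at an unadjusted p under 0.05. Differences in summits per gene that changed sign, none of them called, were Foxa2 with N divided by 2 (−0.5) and Foxa1 (0.667) and Foxa3 (0.167) with all summits. With a library left out they ran from −0.833 to 0.33 for Foxa1, from −0.33 to 1 for Foxa2 and from −0.33 (without iHA-Foxk1 replicate 1 of day 5) to 0.833 for Sox17. With the other endoderm genes, 39 of 90 alternative counts differed from the count given by over 1.5 times. Read depth is unknown, and at day 10 lists of 4028 to 10548 summits held at most 1 summit at the 8 genes.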
